A study of Mus musculus with 30 samples.

Results

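The first 6 h of muscle differentiation were examined in mouse embryonic fibroblasts that carried wild-type MyoD fused to a hormone-binding domain. The comparison set 3 arrays at 6 h against 3 arrays at 0 h, chosen by their titles, out of 30 arrays in the series, and covered 18193 genes. The cells at 6 h were MyoD-/-/Myf5-/- fibroblasts with a retrovirus for ER-MyoD wt, kept for 6 h in differentiation medium (DM) supplemented with beta-estradiol. The cells at 0 h were the same fibroblasts with the same retrovirus before any time in that medium and hormone. The deleted Myod1 and Myf5 genes, the retroviral transduction and the ER-MyoD wt insert were thus shared by both groups. Arrays of ER-MyoD wt at 12 h and 24 h are also read. Arrays of 2 other cells are used beside those of ER-MyoD wt. These were ER-MyoD RRR at 6 h, in which lysines 99, 102 and 104 of MyoD were changed so that they can no longer be acetylated, and an empty retrovirus at 6 h, both in the same medium and hormone. No 0 h arrays of these cells were analysed here, so medium, hormone and MyoD cannot be told apart in the difference between 6 h and 0 h. Nothing in the labels ties the 3 replicates of a group to separate cultures, so the p-values cover the spread among these arrays alone, and that spread may be technical. Earlier work on these files found 3 arrays apart from the rest, ER-MyoD RRR at 6 h replicate 2, empty retrovirus at 12 h replicate 1 and ER-MyoD wt at 24 h replicate 3. The first of these had 3' to 5' control ratios of 2.44 for Gapdh and 3.61 for Actb. None of them is in the 6 h or 0 h group of ER-MyoD wt.

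MyoD is a basic helix-loop-helix transcription factor that can turn fibroblasts into skeletal muscle cells. It binds E-boxes as a dimer with an E protein, and Id proteins hold E proteins away from it. A fusion to the hormone-binding domain of the estrogen receptor is kept inactive by chaperones until the hormone is added. Differentiation medium is poor in serum, so growth factor signalling through the ERK kinases and the serum response factor also falls when cells are moved into it. In muscle cultures, early targets of MyoD appear within hours, while most sarcomere genes follow after Myog and the Mef2 factors.

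The arrays gave 1 fluorescence signal per probe set, a short stretch of a transcript probed by several oligonucleotides. A gene was read from its brightest probe set, so the signal of a gene is not comparable with that of another gene. Within the 6 h group, arrays correlated at 0.960 to 0.967 over all genes on the log2 scale, and within the 0 h group at 0.961 to 0.972. Between the groups the range was 0.926 to 0.940. The ratio of the 3' to the 5' control probes of Gapdh, a sign of RNA quality, was 0.876 to 0.947 at 6 h and 0.815 to 1.03 at 0 h, and for Actb 1.14 to 1.57 at 6 h and 1.10 to 1.22 at 0 h. The part of this Actb gap in the results was not tested.

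Myod1 had signals of 1125, 753 and 814 at 6 h, against 1299, 1105 and 1151 at 0 h. The arrays overlapped, and the log2 difference was -0.38 ± 0.35 (SE, limma, adjusted p = 0.551). In empty retrovirus cells at 6 h the mean was 167 ± 32.0 (SD, n = 3), below each of the 6 ER-MyoD wt arrays of 6 h and 0 h. Myf5 did not pass either (0.21 ± 0.28, adjusted p = 0.720). Where these probe sets lie relative to the deleted parts of the genes was not known here, so they do not check the deletions.

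The label of the cells was checked against fibroblast markers. All 10 measured markers had a mean signal of at least 50 in 1 or both groups, led by the intermediate filament gene Vim with a mean signal of 9917 at 6 h and 12122 at 0 h. Of the 10 markers 0 rose and 3 fell (Prrx1, Pdgfrb and Col1a2), and their summed signal was 41242 to 50124 at 6 h and 50607 to 71373 at 0 h. The Pdgfrb call was lost under 9 and the Col1a2 call under 8 of 17 alternative settings, that of Prrx1 under none. Among all genes, 17.7% were called in this comparison, 9.51% higher and 8.2% lower. A mean signal under 50 in both groups was found for 8 of 10 endothelial markers, 7 of 10 cardiac markers, 6 of 8 adipocyte markers, 5 of 8 chondrocyte and osteoblast markers, 6 of 11 epithelial markers, 5 of 11 neuronal and glial markers and 5 of 11 macrophage and blood markers. The brightest epithelial marker, Epcam, had a mean of 170 at 6 h and 228 at 0 h, and the brightest neuronal and glial marker, Mbp, 104 at 6 h and 155 at 0 h. Csf1r, the receptor of a macrophage growth factor, was the only macrophage and blood marker of 11 that rose, with signals of 243, 336 and 344 at 6 h and 133, 110 and 125 at 0 h (1.09 ± 0.19, adjusted p = 0.000104). The other 2 Csf1r probe sets did not pass (-0.14 and 0.44), and with the mean of all probe sets the gene was not called (0.46, adjusted p = 0.0593). That list summed to 644 to 780 at 6 h and 538 to 593 at 0 h. Lpl, a lipase of fat cells, fell by 0.55 on the log2 scale and was the only adipocyte marker of 8 that passed. No cardiac, chondrocyte and osteoblast, neuronal and glial, endothelial or epithelial marker passed. In such bulk samples, fewer cells of a type and less RNA per cell cannot be told apart.

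At an adjusted p under 0.05, 1730 genes were higher and 1491 lower at 6 h than at 0 h. A change of 2-fold or more was reached by 676 of the higher and 384 of the lower genes, of 4-fold by 64 and 49, and of 8-fold by 15 and 9. Of the 3221 genes called, 3140 had normalized signals that did not overlap between the 3 arrays at 6 h and the 3 at 0 h. A call favours such genes, and the share over all genes is not given here, so this count is no further support. The median log2 difference of all genes was -0.05. When only the 11261 genes with a mean signal of at least 50 were fitted, 1842 were higher and 1633 lower. These are larger shares than over all genes, so a list of bright genes can exceed the shares of all genes. Of 350 genes that rose 2-fold or more and had a further probe set, that probe set gave the same call in 61.4% and the opposite call in 1 gene. Of 107 such genes that fell, the share with the same call was 73.8%, and 0 had the opposite call.

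**Figure D1:**
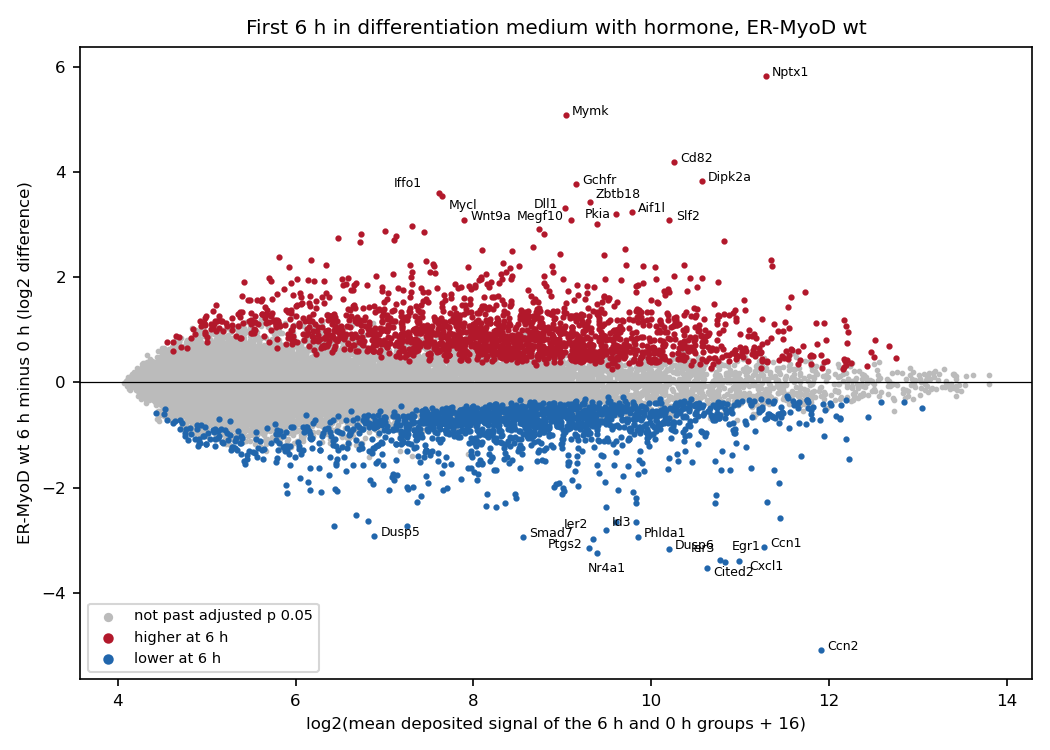
Log2 difference between 6 h and 0 h in ER-MyoD wt (vertical axis) against the log2 of the mean signal of both groups plus 16 (horizontal axis), 1 point per gene. Red points are the 1730 genes higher and blue points the 1491 lower at 6 h, with the 14 largest in each direction named. Nptx1 lies highest at 5.83 and Ccn2 lowest at -5.09.

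The largest rises combined a synaptic protein, genes of myoblast fusion and adhesion, and transcription factors. Nptx1, a secreted pentraxin known from synapses, had signals of 5297, 5146 and 4293 at 6 h, against 62.2, 52.9 and 65.4 at 0 h. Each 6 h array was far above every 0 h array, with a log2 difference of 5.83 ± 0.15 (adjusted p = 8.66e-21). In the same medium and hormone, Nptx1 had a mean signal of 4605 ± 250 in ER-MyoD RRR cells and 473 ± 61.6 in empty retrovirus cells at 6 h (SD, n = 3 each), so the empty cells lay above the 0 h level as well. Mymk, the membrane protein that drives myoblasts to fuse, had signals of 1059, 1000 and 972 at 6 h and 7.29, 4.73 and 25.8 at 0 h. Its 0 h signals were near the bottom of the scale, and it rose by 5.09 ± 0.26 on the log2 scale (adjusted p = 1.96e-14). In empty retrovirus cells at 6 h, Mymk stayed at a mean signal of 7.75 ± 3.50 (SD, n = 3).

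The third largest rise was that of Cd82, a tetraspanin of the cell surface. Its signals were 2451, 2528 and 1998 at 6 h and 102, 110 and 77.9 at 0 h (4.20 ± 0.13, adjusted p = 7.46e-19). A dimmer probe set of Cd82 did not pass (-0.44, adjusted p = 0.402 over all probe sets). Dipk2a, a secreted kinase-like protein, rose by 3.83, and Gchfr, the feedback regulator of the enzyme GTP cyclohydrolase, by 3.77. Dll1, a ligand of Notch receptors that MyoD is known to activate in embryos, had signals of 1072, 892 and 872 at 6 h and 79.0, 55.8 and 70.9 at 0 h (3.32 ± 0.14, adjusted p = 4.44e-16). The groups were wide apart, and at 6 h empty retrovirus cells had a mean Dll1 signal of 100 ± 13.2 (SD, n = 3). Zbtb18, a repressor that acts on Id genes in muscle, rose by 3.43, and Mycl, of the Myc family, by 3.54. Megf10, a receptor of satellite cells, and Wnt9a, a secreted Wnt ligand, both rose by 3.09. The other named genes among the 14 largest were Iffo1 (3.60), Aif1l (3.24), Pkia, an inhibitor of protein kinase A (3.20), and Slf2 (3.08). For Slf2 and Wnt9a a further probe set did not pass. Further probe sets of Aif1l, nearly as bright as the one read, rose by 5.77 and 2.83, so its size and rank depend on the probe set.

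Ccn2 and Cited2 had the largest falls. Ccn2, a matricellular growth factor gene that TGF-beta, SRF and YAP signalling all raise, had signals of 177, 190 and 175 at 6 h, against 7722, 7811 and 7034 at 0 h. The log2 difference was -5.09 ± 0.29 (adjusted p = 3.78e-13), and no array at 6 h came near the 0 h arrays. Cited2, a co-regulator of CBP and p300, had signals of 200, 203 and 199 at 6 h and 2729, 3294 and 2773 at 0 h. Its log2 difference was -3.53 ± 0.11 (adjusted p = 7.46e-19). Cited2 was listed with the genes of growth factor withdrawal, of which it was 1 of 3 that fell. In empty retrovirus cells at 6 h, Cited2 had a mean signal of 893 ± 81.0, which lay between the ER-MyoD wt groups at 6 h and 0 h.

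**Figure D2:**
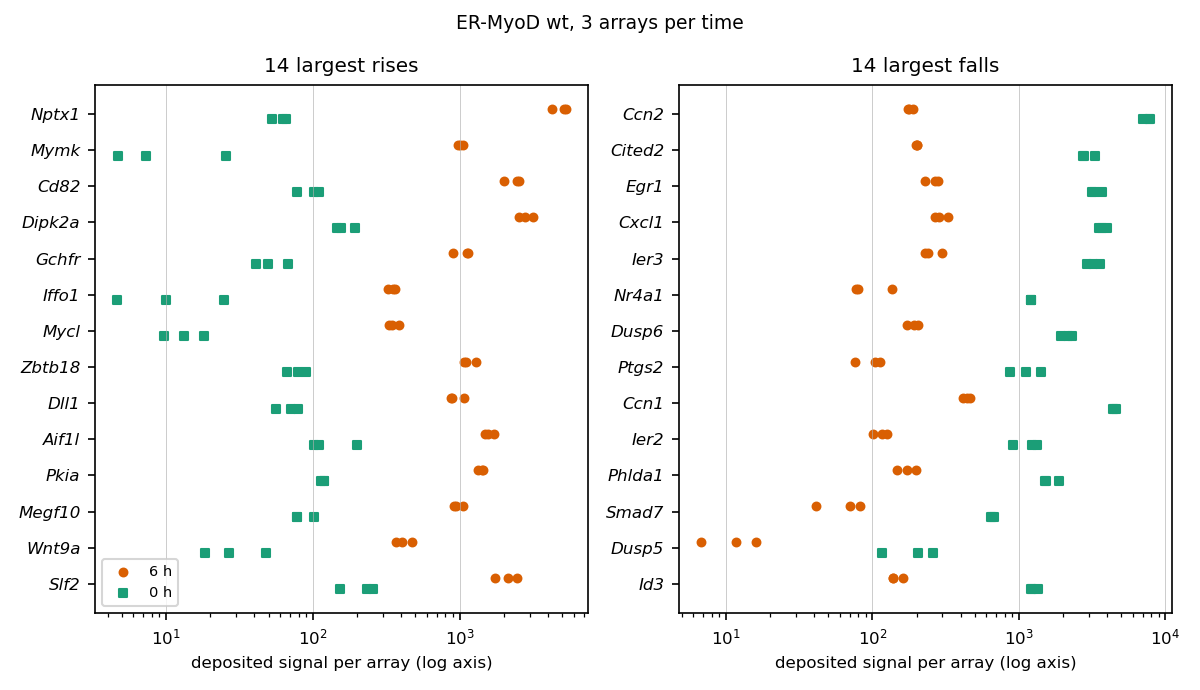
Deposited signal of each array (log axis) for the 14 largest rises (left) and the 14 largest falls (right) in ER-MyoD wt, with circles for the 3 arrays at 6 h above squares for the 3 at 0 h. The groups are apart for each of the 28 genes, as the rule that chose them required of the normalized signals.

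Immediate early genes, which cells transcribe within minutes of a growth stimulus without new protein, fell as a group. Of 25 measured members 19 fell, 1 rose and 5 did not pass, with a median log2 difference of -1.23 against -0.05 for all genes. Egr1, a zinc finger factor of this class, had signals of 229, 282 and 267 at 6 h and 3256, 3703 and 3140 at 0 h (-3.42 ± 0.19, adjusted p = 2.41e-13). No array overlapped, and in empty retrovirus cells at 6 h its mean was 188 ± 5.85. Fos, a subunit of the AP-1 factor, had signals of 8.04, 16.7 and 20.3 at 6 h, against 196, 131 and 145 at 0 h (-2.52 ± 0.35, adjusted p = 3.83e-06). Its levels at 6 h were dim, so the pseudocount of 16 shrinks this difference. Myc, the growth-promoting transcription factor, had signals of 218, 159 and 141 at 6 h and 1674, 837 and 1539 at 0 h (-2.65 ± 0.31, adjusted p = 2.16e-07). Ier3, Nr4a1, Ccn1 and Ier2 fell by 3.37, 3.25, 3.13 and 2.97. Klf10, a Krüppel-like factor that TGF-beta is known to induce, was the single member that rose (0.92) and was named after its value was seen.

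The delayed serum response genes went the same way, with 19 of 24 lower, 2 higher and a median of -1.55. Fosl1, an AP-1 partner of later stages, fell by 1.64. The enzyme of prostaglandin synthesis Ptgs2 had signals of 112, 76.4 and 103 at 6 h and 1420, 1125 and 867 at 0 h (-3.15 ± 0.29, adjusted p = 3.53e-09). The secreted growth factor Ereg fell by 2.36 and F3, the initiator of blood clotting, by 2.01. The 2 members that rose were Hmox1, the enzyme that breaks down haem (1.52), and the cyclin Ccnd1 (0.76). Ccnd1, which carries growth signals to the cell cycle, had signals of 5103, 6137 and 5715 at 6 h and 3639, 3916 and 3725 at 0 h, with no overlap. A dimmer Ccnd1 probe set did not pass (-0.02), while another rose by 1.01.

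Genes listed for ERK feedback, not all of which limit ERK, also fell, 11 of 15, with 2 higher and a median of -1.04. Among these falls, Egr1 and Ier3 were also counted with the immediate early genes, and Phlda1 with the delayed serum response genes. Dusp6, a phosphatase of ERK, had signals of 172, 203 and 193 at 6 h and 2167, 1930 and 2300 at 0 h (-3.16 ± 0.27, adjusted p = 7.58e-10). Its arrays did not overlap, and the mean in empty retrovirus cells at 6 h was 430 ± 58.7. Dusp5, a nuclear ERK phosphatase, fell by 2.91 and Phlda1 by 2.94. The ETS factor Etv5 fell by 1.90. The 2 risers were the Sprouty-related inhibitors Spry1 (0.67) and Spred2 (1.10), named after their values were seen.

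Targets of TGF-beta and BMP fell in 12 of 24 cases and rose in 1, with a median of -0.72. Smad7, the inhibitor of both pathways, had signals of 70.7, 82.7 and 40.9 at 6 h and 677, 656 and 644 at 0 h (-2.93 ± 0.27, adjusted p = 3.85e-09). Grem1, a BMP antagonist, fell by 2.04. Of 24 YAP/TEAD targets 9 fell and 3 rose, led by Ccn2 and Ccn1, which other lists here also hold. Ankrd1, a muscle ankyrin repeat protein of that list, fell by 1.66 and Amotl2, which binds YAP, by 1.30. Of 27 cytokines and chemokines 7 fell and 0 rose. Cxcl1, a neutrophil attractant, had signals of 266, 286 and 327 at 6 h and 4019, 3681 and 3515 at 0 h (-3.40 ± 0.20, adjusted p = 5.79e-13). The monocyte attractants Ccl2 and Ccl7 fell by 2.58 and 1.73, and Lif, an interleukin-6 family cytokine, by 1.98. Cxcl5, another neutrophil attractant, had a log2 difference of -2.64. A dimmer probe set of Lif did not pass. The falls of Cxcl1, Ccl2, Ccl7 and Lif were also counted with the delayed serum response genes.

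Inhibitors of MyoD moved in both directions, with 4 of 20 higher, 5 lower and a median of -0.32. The falls included 3 Id genes. Id3 had signals of 161, 139 and 138 at 6 h and 1342, 1234 and 1201 at 0 h (-2.81 ± 0.19, adjusted p = 1.17e-11). Its groups were apart, and empty retrovirus cells at 6 h had a mean of 134 ± 20.4, near the ER-MyoD wt mean of 146 ± 13.0 at that time (SD, n = 3 each). Id4 fell by 2.04 and Id1 by 1.68, while Twist2, a basic helix-loop-helix repressor of mesenchyme, fell by 1.66. The fourth Id gene, Id2, went the other way, with signals of 758, 787 and 938 at 6 h and 395, 268 and 301 at 0 h (1.24 ± 0.40, adjusted p = 0.0282). This call was lost under 7 alternative settings (highest adjusted p = 0.147 with a pseudocount of 1), and 2 further probe sets of Id2 did not pass. Zeb1, a zinc finger repressor of muscle genes, rose by 1.97, with signals of 1086, 1276 and 1074 at 6 h and 224, 312 and 228 at 0 h. Hey1, a Notch effector, rose by 1.66.

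Myogenic regulators rose in 11 of 31 cases and fell in 2, with a median of 0.38. Mef2a, a MADS-box partner of MyoD, had signals of 1577, 859 and 1178 at 6 h and 169, 216 and 155 at 0 h (2.43 ± 0.25, adjusted p = 3.59e-08). Tcf12, the E protein HEB that pairs with MyoD, rose by 1.32, and Jdp2, a small AP-1 repressor, by 0.80. With the mean of all probe sets Jdp2 was not called (adjusted p = 0.437 in limma). Myog, the MyoD target that commits cells to differentiation, had signals of 37.2, 25.5 and 10.5 at 6 h and 13.7, 3.38 and 5.90 at 0 h. The deposited arrays overlapped, and the call (0.76 ± 0.22, adjusted p = 0.0155) was lost under 5 alternative settings (highest adjusted p = 0.171 without ER-MyoD wt 6 h replicate 1). Over time, the mean Myog signal in ER-MyoD wt was 7.65 ± 5.37 at 0 h, 24.4 ± 13.4 at 6 h, 613 ± 53.4 at 12 h and 6113 ± 72.8 at 24 h (SD, n = 3 each), so nearly all of its signal came after 6 h. Mef2c, another MADS-box factor, did not pass (-0.19, adjusted p = 0.632). Hes6, which relieves Hes1 repression, rose by 0.88, with signals of 297, 227 and 234 at 6 h and 120, 113 and 122 at 0 h.

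In the Notch pathway 6 of 24 genes rose and 0 fell. Beside Dll1 and Hey1 these were the receptors Notch1, Notch2 and Notch3 and the co-activator Maml1, with log2 differences of 0.53, 1.02, 0.78 and 0.84. Without ER-MyoD wt 6 h replicate 2 the count of rises was 3, and with the mean of all probe sets 3 members fell. Hes1 and Heyl, effectors of the pathway, had values of 0.02 and -0.46 that did not pass.

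Genes of fusion, adhesion and calcium handling rose a few at a time. Of 30 fusion and adhesion genes 6 rose and 3 fell, and the median was 0.03. Over all genes 9.51% were higher and 8.2% lower, and brighter genes were called more often. Cdh15, the cadherin of muscle precursors, had signals of 813, 930 and 581 at 6 h and 64.4, 106 and 76.7 at 0 h (2.82 ± 0.17, adjusted p = 5.79e-13). Mymx, the small partner of Mymk in fusion, had signals of 187, 229 and 271 at 6 h and 35.0, 18.4 and 5.52 at 0 h (2.78 ± 0.40, adjusted p = 8.14e-06). Both genes were higher on every 6 h array than on any 0 h array. Itga7, the laminin receptor subunit of muscle, rose by 1.81. Among 23 excitation-contraction and calcium genes 5 rose and 0 fell. The risers included Mymk, which the fusion list also holds. Stac3, which couples the voltage sensor to the calcium release channel, had signals of 164, 122 and 130 at 6 h and 7.75, 7.27 and 6.07 at 0 h (2.75 ± 0.35, adjusted p = 1.41e-06). Srl, a calcium-binding protein of the reticulum, rose by 1.59 and Cacna2d1, a calcium channel subunit, by 1.54.

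Of 15 acetylcholine receptor and synapse genes 3 rose and 1 fell, the ETS factor Etv5. Lrp4, the receptor of agrin, had signals of 142, 197 and 202 at 6 h and 40.8, 42.3 and 35.7 at 0 h (1.74 ± 0.25, adjusted p = 5.37e-06). Chrng, the fetal receptor subunit, rose by 1.57 and Rapsn, which clusters the receptor, by 1.12. Their 0 h arrays were dim, with Chrng at 5.54 to 8.09 and Rapsn at 3.76 to 6.18. Chrna1, the main ligand-binding subunit, had 36.7, 36.4 and 66.5 at 6 h and 10.4, 67.2 and 25.2 at 0 h. Its arrays overlapped and it did not pass (0.44 ± 0.32, adjusted p = 0.410). The Rapsn call was lost under 3 alternative settings.

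Most sarcomere genes did not pass at 6 h. Of 47 measured 5 rose, 1 fell and 41 did not pass, with a median of -0.07. Over all genes 9.51% were higher and 8.2% lower, so the share of rises was near that of all genes. Tnnt2, a troponin T made early in muscle, showed signals of 4071, 4384 and 4554 at 6 h and 894, 847 and 838 at 0 h (2.33 ± 0.24, adjusted p = 2.48e-08). It was already bright at 0 h, above the mean of 29.1 ± 15.4 in empty retrovirus cells at 6 h. Tnnc1, the slow troponin C, had 515, 571 and 575 at 6 h and 87.5, 103 and 99.4 at 0 h (2.18 ± 0.15, adjusted p = 1.14e-11). Actc1, the sarcomeric actin of early muscle, rose by 1.47, as did Tnnt1, the slow troponin T. Tnnt1 was dim, with 20.9, 34.9 and 45.8 at 6 h and 4.04, 2.32 and 1.78 at 0 h, and its value ranged from 0.59 to 3.27 over the settings. Actn3, the Z-line protein alpha-actinin 3, completed the 5 with 1.06 and was named because the count was small. Tpm2, a tropomyosin, was the 1 that fell (-0.43), and 6 alternative settings lost that call. Of 22 genes of muscle energy metabolism 1 rose, the creatine kinase Ckb (1.19), and 3 fell, Cox7a1, Ldhb and Pfkm.

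**Figure D3:**
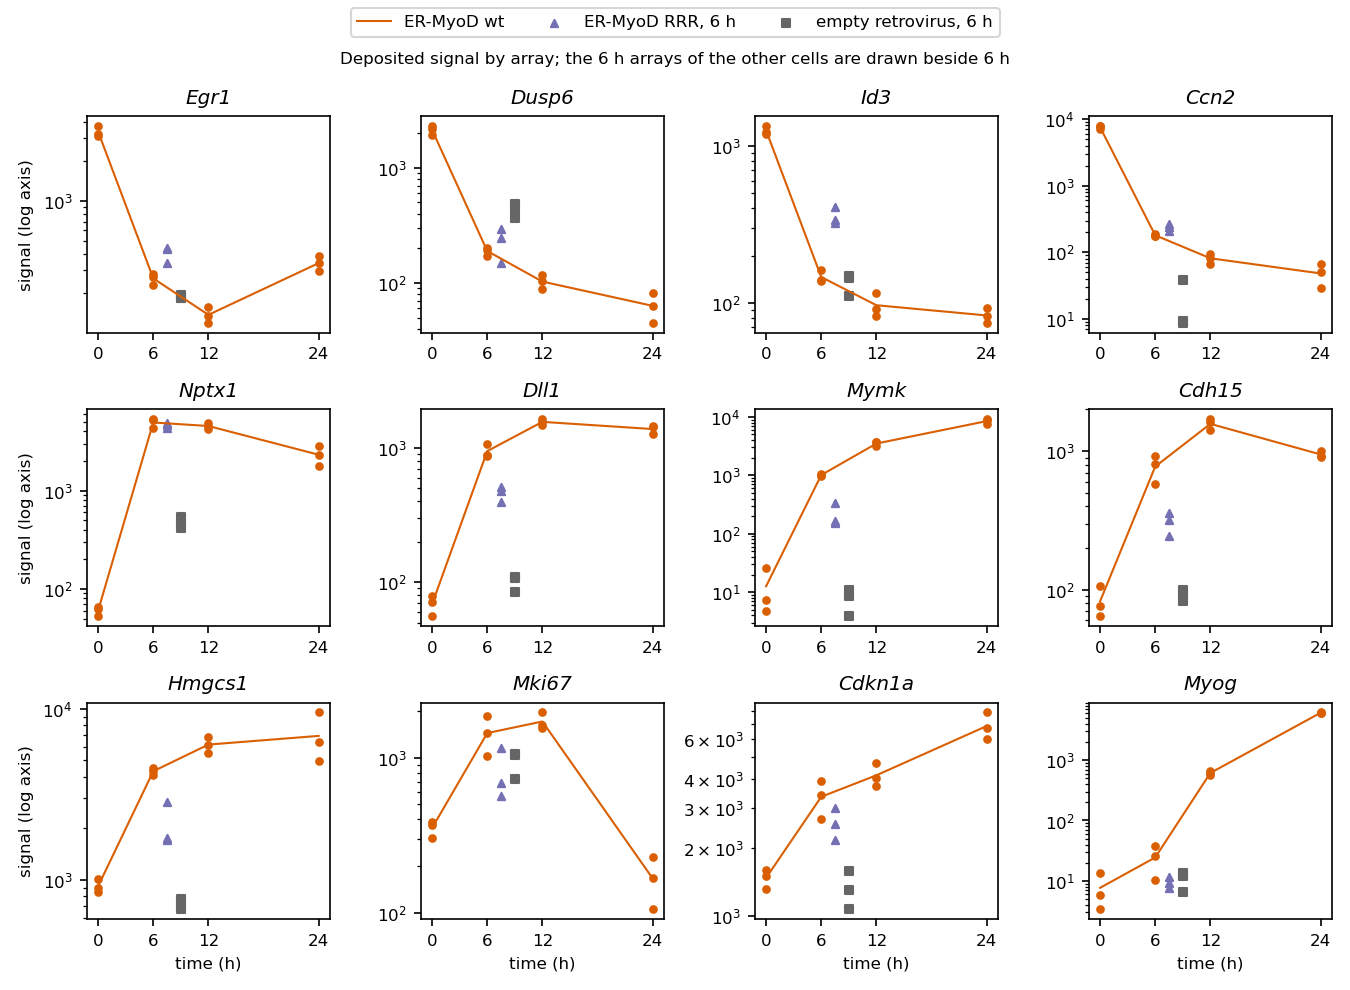
Deposited signal (log axis) of 12 named genes in ER-MyoD wt against time in hours, with a dot per array and a line through the means of 3 arrays. Triangles and squares are the ER-MyoD RRR and empty retrovirus arrays of 6 h, drawn beside that time. Egr1, Dusp6, Id3 and Ccn2 drop in the first 6 h, and Myog gains most of its signal after 6 h.

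Smooth muscle and SRF targets had 1 of 25 higher and 9 lower, with a median of -0.40. Acta2, the smooth muscle actin, had signals of 10025, 13049 and 9474 at 6 h and 9784, 15312 and 10057 at 0 h, which overlapped (-0.05 ± 0.10, adjusted p = 0.836). The falls included Tgfb1i1, a focal adhesion protein (-1.49), Pdlim7 (-1.10), Pdlim5 (-0.76), Csrp2 (-0.72) and Cnn2, a calponin (-0.65). Fhl2, a LIM protein, was the 1 that rose (0.52). Among 33 fibroblast and matrix genes 3 rose and 4 fell. Postn, a matricellular protein, rose by 1.17, with signals of 1570, 1095 and 1352 at 6 h and 604, 593 and 479 at 0 h. Loxl3, a lysyl oxidase that cross-links collagen, fell by 1.11. Matrix protease genes split into 6 higher and 8 lower of 23. Mmp10, a stromelysin, had 216, 261 and 339 at 6 h and 1352, 1746 and 1459 at 0 h (-2.28 ± 0.24, adjusted p = 4.57e-08), and Adamts4, an aggrecanase, rose by 1.16.

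Of 19 genes of cell cycle exit 8 rose, 3 fell and 8 did not pass, with a median of 0.41. Rb1, the retinoblastoma protein that holds cells in G1, had signals of 909, 603 and 741 at 6 h and 90.3, 53.2 and 77.4 at 0 h (2.92 ± 0.22, adjusted p = 1.36e-10). A further Rb1 probe set was near the bottom of the scale, with mean signals of 1.99 at 6 h and 5.71 at 0 h, and did not pass. Gadd45g, a growth arrest gene, had 1405, 1128 and 1365 at 6 h and 284, 276 and 316 at 0 h (1.94 ± 0.13, adjusted p = 1.71e-11). Cdkn1a, the cyclin kinase inhibitor p21, had 2688, 3951 and 3419 at 6 h and 1506, 1594 and 1324 at 0 h (1.22 ± 0.17, adjusted p = 3.43e-06). No array of these 3 genes overlapped between the times. A dimmer Cdkn1a probe set did not pass (0.15), and with the mean of all probe sets the gene was not called (adjusted p = 0.0861). Ccnd3, a D cyclin that differentiating muscle keeps, rose by 0.77. Gas1, a growth arrest membrane protein, rose by 1.63.

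Of 33 mitosis genes 18 rose and 0 fell, with a median of 0.53. Mki67, a protein of dividing cells, had signals of 1852, 1024 and 1450 at 6 h and 384, 371 and 303 at 0 h (1.84 ± 0.25, adjusted p = 3.66e-06). Top2a, the topoisomerase that untangles chromosomes, had 2186, 1560 and 2021 at 6 h and 700, 758 and 762 at 0 h (1.34 ± 0.14, adjusted p = 2.66e-08). The groups were apart for both, and in empty retrovirus cells at 6 h the means were 946 ± 190 for Mki67 and 1608 ± 160 for Top2a (SD, n = 3 each). The spindle checkpoint kinases Bub1 and Ttk rose by 1.77 and 1.32, and Nusap1, a spindle protein, by 1.07. For these 3 genes a further probe set did not pass. Other defining members of the list did not pass, among them Plk1 (0.09), Aurkb (0.09), Cdc20 (0.19) and Birc5 (0.00), which were named after their values were seen. Among 36 genes of DNA replication and the G1/S step 8 rose, 2 fell and 26 did not pass. The replication factor Gins3 rose by 1.45, Rrm2, which makes deoxynucleotides, by 1.08 and Pola1, a polymerase subunit, by 1.06. Mcm5, a part of the replicative helicase, had signals of 2438, 2740 and 2390 at 6 h and 2419, 2275 and 2167 at 0 h and did not pass (0.27 ± 0.13, adjusted p = 0.160).

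Sterol synthesis and uptake was the list with the highest median among the 35 lists of programmes, 0.95, with 13 of 20 genes higher and 1 lower. Hmgcs1, the enzyme before the rate-limiting step of cholesterol synthesis, had signals of 4516, 4084 and 4330 at 6 h and 846, 1005 and 900 at 0 h (2.22 ± 0.16, adjusted p = 3.26e-11). Idi1, an isomerase of the isoprenoid steps, had 1519, 1347 and 1330 at 6 h and 304, 216 and 246 at 0 h (2.24 ± 0.16, adjusted p = 3.53e-11). Both were apart between the times, and in empty retrovirus cells at 6 h their means were 717 ± 49.6 and 172 ± 4.64, below the ER-MyoD wt means of 917 ± 81.3 and 255 ± 44.7 at 0 h. Hsd17b7, a later enzyme, rose by 1.82, Stard4, a sterol carrier, by 1.33 and Fdft1, squalene synthase, by 1.28. Sqle, squalene epoxidase, rose by 0.90, with signals of 2138, 1698 and 1959 at 6 h and 931, 1162 and 1066 at 0 h. The 1 that fell was Ebp, a sterol isomerase (-0.93). Fatty acid genes split into 6 higher and 3 lower of 18, with Acsl3, a fatty acid ligase, at 1.97 and Mid1ip1, an activator of acetyl-CoA carboxylase, at -1.58.

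The sterol genes are read by SREBP factors, so promoters of RefSeq (GRCm38.p6, 250 bases before to 50 after the annotated start) were searched on both strands for TCACNCCAC, the letters of the sterol regulatory element. Of the 20 sterol genes 16 had a promoter there, and 1 of these, Hmgcs1, held the letters (6.25%), against 171 of 14452 promoters of all genes compared (1.18%). Among genes that rose 2-fold or more, 6 of 535 promoters held the letters (1.12%). The Hmgcs1 promoter is printed because it alone of the list held them. It lies at chr13:119690101-119690400 on the plus strand, and capitals mark the match, which overlaps no other motif searched.
Hmgcs1: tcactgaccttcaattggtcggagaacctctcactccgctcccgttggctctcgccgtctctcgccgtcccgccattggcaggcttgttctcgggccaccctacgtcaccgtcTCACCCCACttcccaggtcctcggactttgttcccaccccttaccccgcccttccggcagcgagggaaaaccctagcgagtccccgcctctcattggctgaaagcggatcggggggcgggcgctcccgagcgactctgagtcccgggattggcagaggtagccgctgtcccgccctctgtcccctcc

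The integrated stress and amino acid response is switched on by ATF4 when charged tRNA runs short. Of its 29 measured genes 13 fell, 3 rose and 13 did not pass, with a median of -0.36. Chac1, which degrades glutathione, had signals of 108, 151 and 99.1 at 6 h and 370, 426 and 391 at 0 h (-1.54 ± 0.20, adjusted p = 1.78e-06). The arrays did not overlap, and at 6 h empty retrovirus cells had a mean of 110 ± 17.5. Trib3, a pseudokinase that restrains ATF4, fell by 1.52, to a mean signal of 46.3 at 6 h against 161 at 0 h. Asns, asparagine synthetase, fell by 0.89 and Aars, which charges alanine tRNA, by 0.90. The serine enzyme Psph had 277, 249 and 309 at 6 h and 826, 650 and 666 at 0 h (-1.25 ± 0.13, adjusted p = 3.34e-08). The cationic amino acid carrier Slc7a1 fell by 1.48. The 3 that rose were Ddit4, an inhibitor of mTORC1 that growth factor loss also raises (1.72), the amino acid carrier Slc7a5 (1.29) and the lipoprotein receptor Vldlr (0.83).

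The promoters of this list were searched on both strands for TGATGNAA, the core of the amino acid response element. Of the 29 genes 24 had a RefSeq promoter and 8 of these held the letters (33.3%), against 399 of 14452 promoters of all genes compared (2.76%). ATF4 targets were in part defined by this element, so the share describes the list and is not a result of the arrays. The 4 promoters below belong to members that fell and were chosen after their values were seen. Capitals mark each match, on either strand, and Aars holds 2. On GRCm38.p6 they lie at chr2:119350992-119351291 on the plus strand (Chac1), chr2:152344011-152344310 on the minus strand (Trib3), chr6:7693160-7693459 on the minus strand (Asns) and chr8:111033592-111033891 on the plus strand (Aars).
Chac1: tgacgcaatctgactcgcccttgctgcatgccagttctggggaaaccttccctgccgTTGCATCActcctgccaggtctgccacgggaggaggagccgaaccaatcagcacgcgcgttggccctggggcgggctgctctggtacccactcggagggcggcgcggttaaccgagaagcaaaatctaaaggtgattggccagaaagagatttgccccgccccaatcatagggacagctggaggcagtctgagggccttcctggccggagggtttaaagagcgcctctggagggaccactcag
Trib3: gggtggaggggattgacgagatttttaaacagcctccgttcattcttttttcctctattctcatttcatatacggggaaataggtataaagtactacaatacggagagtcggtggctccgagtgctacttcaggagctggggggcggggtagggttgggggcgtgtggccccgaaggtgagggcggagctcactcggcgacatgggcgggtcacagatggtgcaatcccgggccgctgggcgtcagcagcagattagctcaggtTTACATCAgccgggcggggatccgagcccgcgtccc
Asns: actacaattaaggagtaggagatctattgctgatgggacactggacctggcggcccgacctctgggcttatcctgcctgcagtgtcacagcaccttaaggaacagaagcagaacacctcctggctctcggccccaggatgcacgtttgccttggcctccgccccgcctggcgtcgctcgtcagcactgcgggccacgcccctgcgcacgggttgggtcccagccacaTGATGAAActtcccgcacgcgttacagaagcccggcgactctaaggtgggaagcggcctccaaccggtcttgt
Aars: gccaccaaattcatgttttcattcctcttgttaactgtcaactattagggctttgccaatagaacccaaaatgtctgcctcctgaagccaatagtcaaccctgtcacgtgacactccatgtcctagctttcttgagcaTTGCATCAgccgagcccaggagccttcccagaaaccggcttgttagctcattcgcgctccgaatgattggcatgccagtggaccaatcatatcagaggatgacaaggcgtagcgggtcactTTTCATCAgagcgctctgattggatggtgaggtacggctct

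Growth factor withdrawal and FOXO targets split, with 7 of 26 higher, 3 lower and a median of 0.04. Sesn3, a sestrin that FOXO factors induce, had signals of 290, 209 and 258 at 6 h and 57.5, 47.6 and 62.3 at 0 h (1.79 ± 0.14, adjusted p = 3.26e-10). Gadd45a, another growth arrest gene, rose by 1.52 and the cyclin Ccng2 by 0.78. Insulin and IGF genes gave 2 higher and 2 lower of 19. Igf1, the growth factor, had 145, 140 and 152 at 6 h and 15.9, 27.7 and 37.5 at 0 h (1.89 ± 0.21, adjusted p = 1.12e-07), and Igf2r, the receptor that clears IGF2, rose by 1.20. The Irs1 adaptor fell by 0.63 and Igfbp6, a binding protein, by 1.09.

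Of 21 genes of the unfolded protein response 6 rose and 3 fell. Hspa5, the chaperone BiP, had signals of 5286, 4858 and 4559 at 6 h and 2569, 2472 and 2326 at 0 h (1.12 ± 0.16, adjusted p = 8.66e-06). Its 2 further probe sets did not pass (0.51 and 0.10). Canx rose by 1.04 and Dnajc3, an inhibitor of the kinase PERK, by 1.30. Ppp1r15a, which ends the stress response, fell by 1.05, and Xbp1 by 0.56. Heat shock genes gave 4 higher and 2 lower of 17. Hsp90aa1, the chaperone that holds steroid receptors, rose by 0.97, with 6199, 6349 and 5417 at 6 h and 3631, 3576 and 3256 at 0 h, while the stress-induced Hspa1b fell by 1.47. Of 23 p53 targets 6 rose and 4 fell, with the cyclin Ccng1 at 1.38 and the kinase Plk2 at -1.50. Ribosome biogenesis and Myc targets split into 6 higher and 7 lower of 37. Npm1, nucleophosmin, rose by 1.13 and Ncl, nucleolin, by 0.80, whereas Odc1, the enzyme that makes putrescine, fell by 0.86 and Srm, spermidine synthase, by 0.61.

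Clock genes had 2 of 18 higher and 6 lower. Nr1d1, the repressor REV-ERB alpha, had signals of 58.8, 62.4 and 19.1 at 6 h and 173, 202 and 202 at 0 h (-1.79 ± 0.35, adjusted p = 0.000340), and Per1, which serum is known to induce, fell by 1.31. The core factor Clock rose by 1.76. Among 18 oxidative stress genes 2 rose and 5 fell, with the metallothioneins Mt2 and Mt1 at -1.22 and -1.01. With the mean of all probe sets Mt1 was not called (adjusted p = 0.184 in limma). The glycolysis and hypoxia list had 5 of 24 higher, among them the oxygen sensor Egln3 (0.98) and Ankrd37 (1.23), and 2 lower. Wnt pathway genes gave 3 higher and 2 lower of 28: Wnt4 rose by 1.99 beside Wnt9a, and Dkk2, a Wnt antagonist, fell by 1.78. Estrogen-responsive genes were 2 higher and 3 lower of 18. The 2 that rose were Esr1, the estrogen receptor alpha gene (1.18), and Ccnd1 (0.76), while Ccn5 fell by 1.24. The Esr1 call was lost under 6 alternative settings, and its 2 further probe sets did not pass (-0.60 and -0.22). The Ccn5 call was lost under 2. Interferon response genes gave 1 higher, Ifit2 (1.32), and 0 lower of 23. Of all genes 9.51% were higher and 8.2% lower. The shares of the Wnt list and of several others were near these, so their counts are not a result about those lists. Over all lists, each described here with its counts, the shares beside the background of all genes are shown in the plot of lists.

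**Figure D4:**
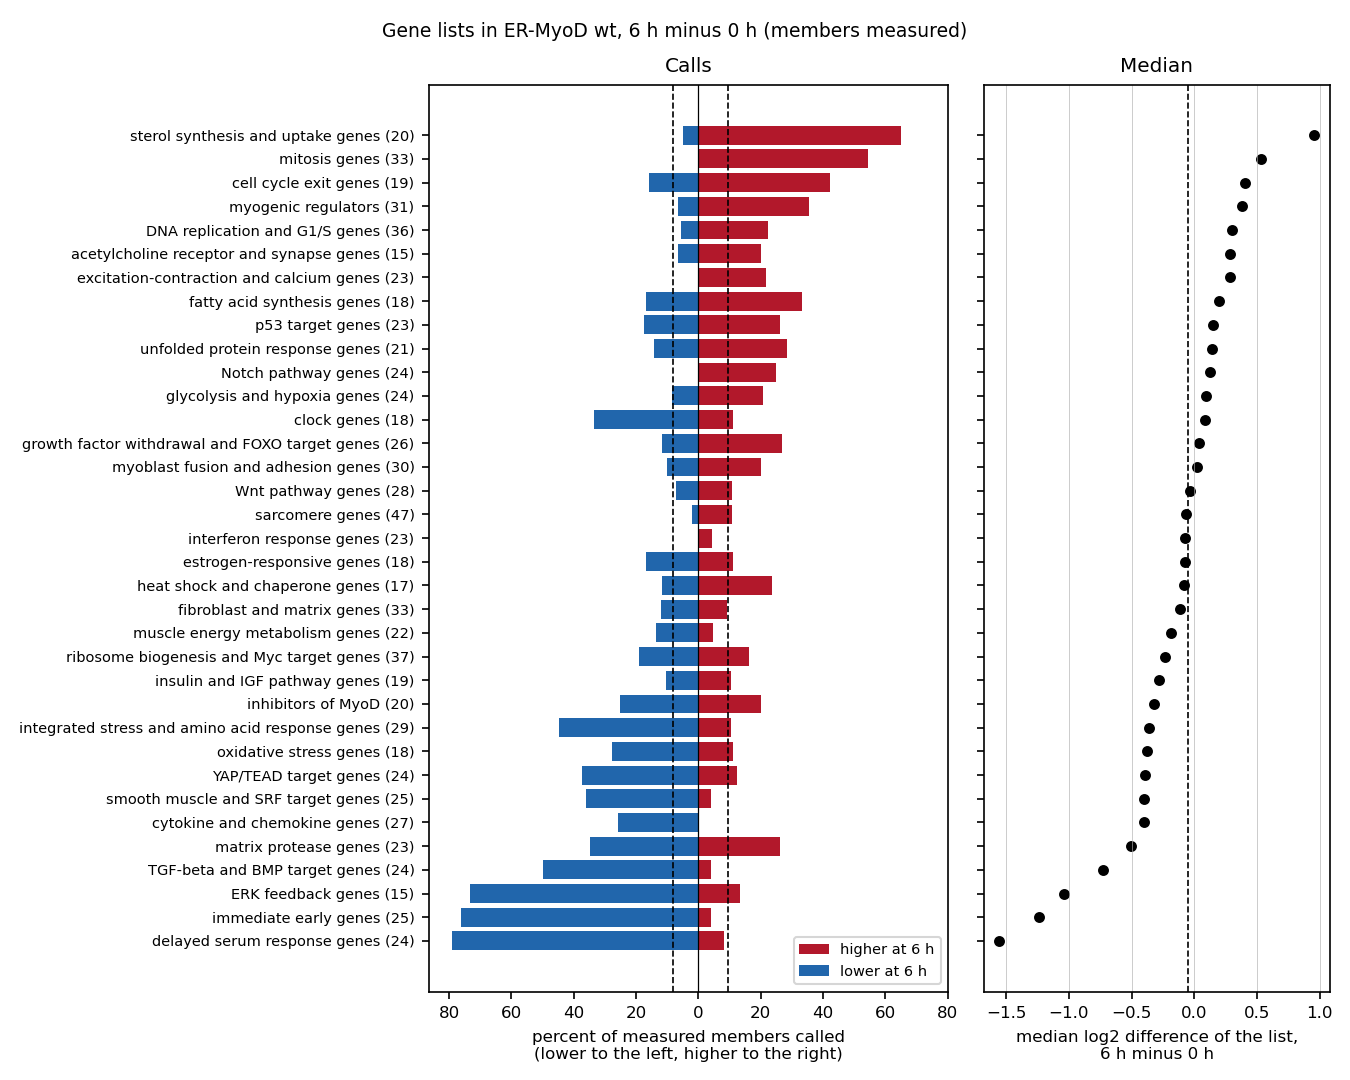
Left, percent of the measured members of each list (their number in parentheses) that were higher (red, to the right) or lower (blue, to the left) at 6 h than at 0 h. Dashed lines give the shares of all genes, 9.51% higher and 8.2% lower. Brighter genes are called more often, so a list of bright genes can exceed these lines. Right, the median log2 difference of each list, with a dashed line at -0.05, the median of all genes. The serum-related lists, which share members, lie lowest and the sterol list highest.

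The contrast of ER-MyoD RRR with empty retrovirus at 6 h shares no array with the comparison of 6 h and 0 h, and its groups had the same medium, hormone and time. In that contrast 7.18% of all genes were higher and 6.65% lower. Of the 676 genes that rose 2-fold or more in ER-MyoD wt by 6 h, 205 (30.3%) were higher in RRR cells than in empty cells, 166 (24.6%) were lower and 305 did not pass. Of the 384 that fell 2-fold or more, 35 (9.11%) were higher, 83 (21.6%) lower and 266 did not pass. Brighter genes are called more often: among the 11261 genes with a mean signal of at least 50, 10.9% were higher and 10.2% lower. All 14 of the largest rises were higher in RRR cells than in empty cells, from 0.84 for Iffo1 to 3.32 for Mymk. Of the 14 largest falls 4 were higher and 4 lower there. Ccn2 had a log2 difference of 3.07 in that contrast, with mean signals of 237 ± 28.1 in ER-MyoD RRR and 19 ± 17.3 in empty retrovirus cells (SD, n = 3 each), and Cited2 had -1.36.

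Without ER-MyoD RRR 6 h replicate 2, the contrast gave 1143 higher and 1275 lower genes, against 1306 and 1209 with it. In ER-MyoD wt against empty retrovirus at 6 h, 6.51% of all genes were higher and 6.22% lower. This contrast shares the ER-MyoD wt 6 h arrays with the comparison of 6 h and 0 h, so values are only set side by side. Mymk had 5.41 ± 0.26 against empty retrovirus and 5.09 against 0 h, Dll1 3.07 and 3.32, and Hmgcs1 2.45 and 2.22. Ccn2 had 2.70 ± 0.29 against empty retrovirus and -5.09 against 0 h, and Egr1 0.52 ± 0.19, which did not pass (adjusted p = 0.0783), and -3.42.

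By list, all 20 sterol genes were higher in RRR cells than in empty cells at 6 h, with a median of 1.30. The mitosis list had 20 of 33 higher and 0 lower there. Mki67, Bub1 and Ttk, which rose by 6 h in ER-MyoD wt, did not pass in that contrast, with -0.40, -0.10 and -0.09. Immediate early genes gave 5 higher and 4 lower of 25 in it, and ERK feedback genes 2 higher and 6 lower of 15. Smooth muscle and SRF targets gave 12 higher and 0 lower of 25, where ER-MyoD wt at 6 h against 0 h had 1 higher and 9 lower. The amino acid list gave 4 higher and 2 lower of 29.

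The last step in ER-MyoD wt, 24 h against 12 h, likewise shares no array with the first. In it 7.98% of all genes were higher and 9.21% lower. Of the 676 genes that rose by 6 h, 107 (15.8%) were higher and 159 (23.5%) lower at 24 h than at 12 h. Of the 384 that fell, 49 (12.8%) were higher and 36 (9.38%) lower. The steps differed by list. Of 33 mitosis genes 0 were higher and 33 lower in the last step (median -2.57), and of 36 replication genes 0 were higher and 33 lower (median -2.01). Sarcomere genes were higher in 26 of 47 cases and lower in 3 (median 1.02), excitation-contraction genes higher in 13 of 23 and energy genes higher in 11 of 22, with 0 lower in both.

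The difference between the steps was itself tested, as the change in the first 6 h less that in the last 12 h. It passed in the positive direction for 10.4% of all genes (1883) and in the negative for 9% (1638). The steps are not of equal length, so the values are not rates. Nptx1 had the largest positive value (6.79 ± 0.22), with 5.83 in the first step and -0.96 in the last. Mki67 had 1.84 and -3.30, Bub1 1.77 and -3.10, and Rad51ap1, a DNA repair protein, 1.67 and -3.79. At the other end, Cox8b, a muscle subunit of cytochrome oxidase, had -0.47 in the first step and 6.02 in the last, and Tnni1, the slow troponin I, 0.57 and 6.04. Tnnc2, the fast troponin C, and Mylpf, a fast myosin light chain, did not pass in the first step (-0.07 and -0.13) and rose by 5.36 and 5.05 in the last.

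**Figure D5:**
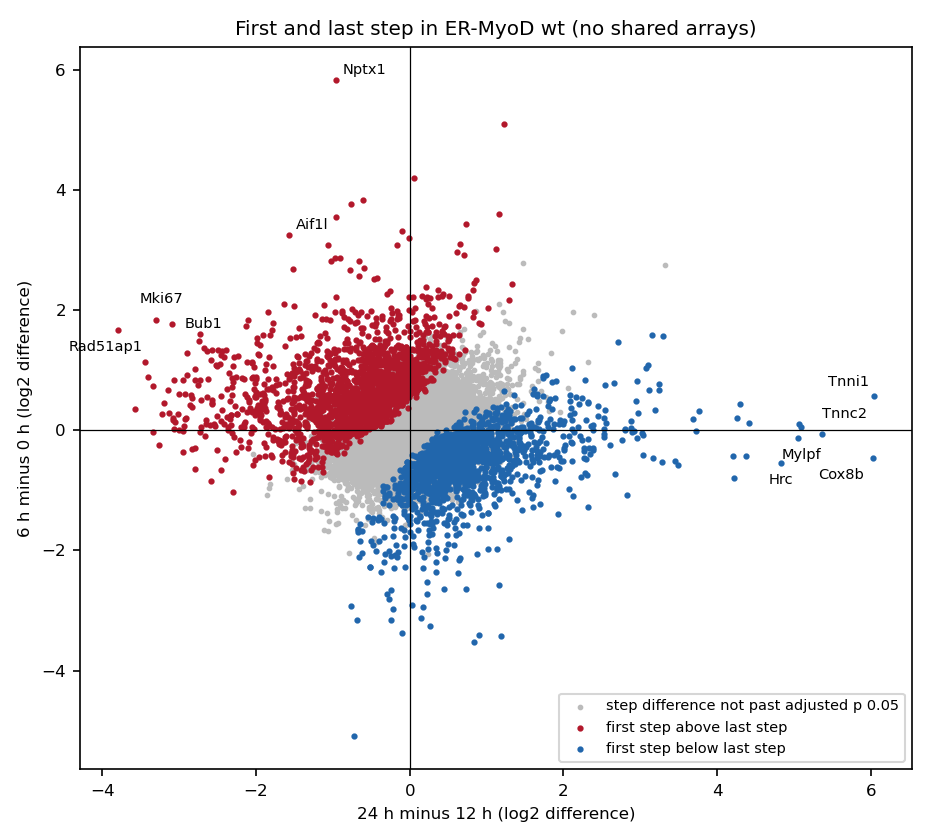
Log2 difference of each gene at 6 h against 0 h (vertical axis) and at 24 h against 12 h (horizontal axis) in ER-MyoD wt. Red and blue mark genes whose 2 steps differed at an adjusted p under 0.05, grey the rest. The 10 named genes had the largest differences between the steps, from 6.79 for Nptx1 to -6.49 for Cox8b.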

How the data were processed

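RNA was read on 30 1-colour arrays (Affymetrix Mouse Genome 430 2.0, biotin label, per the labels). The authors deposited linear signal intensities for each probe set, which ran from 0.0474 to 20986. How they were computed and scaled is not given in the sources used. Each array had the same mean once the highest and lowest 2% were left out, and detection calls were not used here, so no level is called absent.

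Of 45101 probe sets 64 controls were dropped after their use as quality checks. The platform annotation gave 1 symbol to 34945 probe sets, several to 932 and none to 9160, and 34741 Entrez IDs were found in RefSeq with 0 symbols changed. The deposited intensities of the remaining probe sets were quantile-normalized, 16 was added, and log2 was taken. Each of 18193 genes was read from the probe set that was brightest on average over the 30 arrays. limma 3.58.1 in R 4.3.3 fitted 10 group means over 30 arrays (20 residual degrees of freedom, eBayes with a trend), with Benjamini-Hochberg adjustment over all genes. Every adjusted p in the text is of this fit unless stated. A fold change is thus on the log2(signal + 16) scale, which understates changes of dim genes. Per-array signals in the text are the deposited ones, before quantile normalization. Precision is limited by 3 arrays per group. The procedure was tested on simulated data.

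The genes named were Myod1 and Myf5, the 14 largest rises and falls without overlap of arrays, the members with the smallest p of each list (up to 5 a list), fixed genes of early myogenesis and serum withdrawal, and the 10 largest step differences. Other names are said to be chosen after their values were seen, or complete a small count. Members, lists and tests were chosen with earlier results of these data known, so no list is independent support. Replicate numbers were not used to pair arrays. Deviations from the group means of same-numbered arrays correlated at 0.0737, 0.0465 and 0.00761, and those of arrays with different numbers at -0.0654 to 0.0196. These values are small, but they cannot show that pairing is absent. Alternatives covered normalization, pseudocount, dim genes, probe set choice, trend, arrays in the fit, a block and left-out arrays. Not every fixed gene is reported here. Promoters came from RefSeq (GRCm38.p6). For lists with a promoter for under 80% of members, no motif share is given.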

Additional observations from a re-analysis of the deposited data

Results flagged for a closer look

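The change in the first 6 h of ER-MyoD wt differed from that between 12 h and 24 h, by a test of the difference itself in limma, for the genes given here. The steps last 6 h and 12 h. The log2 change of the first step less that of the last was 6.79 for Nptx1, 5.46 for Rad51ap1, 5.15 for Mki67, 4.86 for Bub1 and 4.81 for Aif1l. It was -6.49 for Cox8b, -5.48 for Tnni1, -5.44 for Tnnc2, -5.38 for Hrc, a calcium-binding protein of the reticulum, and -5.18 for Mylpf. All 10 were chosen from the genes that passed this test at an adjusted p under 0.05, so their passing is no further support. A further Bub1 probe set did not pass in the first step.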

How the results depend on the processing

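Of 11 other settings and 6 left-out arrays, none turned the call of a named gene to the opposite direction. For 6 h against 0 h, genes higher ranged from 1357 (mean of all probe sets) to 2014 (without 3 arrays that stand apart) and genes lower from 1152 (median centring) to 1852, against 1730 and 1491. The share of higher among called genes was 49.6% to 56.5%. With only the arrays of the comparison 1798 genes were higher and 1809 lower, so the small excess of higher genes did not hold under every setting. Leaving out each array in turn gave 1438 to 1559 higher and 1098 to 1274 lower. It gave 1001 to 1156 and 897 to 1275 for ER-MyoD RRR against empty retrovirus at 6 h, 1160 to 1282 and 1374 to 1629 for 24 h against 12 h, 1692 to 1923 and 1416 to 1546 for the step difference, and 966 to 1052 and 845 to 949 for ER-MyoD wt against empty retrovirus at 6 h. With a replicate block, 6 h against 0 h gave 1806 higher and 1597 lower, and no list count moved by over 1.5 times. Ak1 alone among named genes gained a call under it (-0.37, adjusted p = 0.0462), and none lost one. The replicate numbers were not used as pairs in the main fit. Under every other setting some of the 86 list counts moved by over 1.5 times. Without ER-MyoD wt 0 h replicate 3 this was 13, with the mean of all probe sets 12 and with median centring 9. Median centring gave 709 lower genes for ER-MyoD RRR against empty retrovirus (1209 otherwise), 948 higher for 24 h against 12 h (1452) and 526 lower for ER-MyoD wt against empty retrovirus at 6 h (1131). With only the arrays of the comparison, ER-MyoD RRR against empty retrovirus gave 726 lower. The cause was not tested. Dim signals limit Myog, Chrng, Rapsn, Mymx, Tnnt1 and Fos. Mymk, Mycl, Iffo1, Stac3, Srl and Hey1 were also dim at 0 h, so the sizes of their rises are uncertain. Over the settings Mymk ranged from 3.73 to 6.30, Mycl from 1.91 to 4.43 and Iffo1 from 2.38 to 4.70. Of 124 named genes with several probe sets, 37 calls rested on the representative alone. Among these were Adamts4, Cacna2d1, Ccnd3, Ccng2, Chrng, Hes6, Hspa5, Jdp2, Lpl, Maml1 and Mt1. Notch2, Notch3, Plk2, Pola1, Wnt4 and Xbp1 were others.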

Other observations

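Genes outside the lists, chosen after their values were seen and for their rise or fall, are given as values, and they say nothing of how often other genes of their kind changed. Clk1, a kinase of splicing factors, had signals of 555, 306 and 487 at 6 h and 110, 72.5 and 66.4 at 0 h in ER-MyoD wt, and Hnrnph1, an RNA-binding protein, had 3425, 2083 and 2635 at 6 h and 803, 666 and 646 at 0 h. The groups did not overlap, and the first 6 h replicate was highest for both. In empty retrovirus cells at 6 h, the mean was 712 ± 27.6 for Clk1 and 3146 ± 234 for Hnrnph1 (SD, n = 3 each), so both means lay above those of ER-MyoD wt at 6 h. Against those cells, Clk1 in ER-MyoD wt at 6 h was lower (-0.75, adjusted p = 0.00636 in limma) and Hnrnph1 did not pass (-0.37, adjusted p = 0.193).

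Nes, the intermediate filament of muscle and neural precursors, rose by 2.05, with 528, 543 and 437 at 6 h and 64.2, 118 and 113 at 0 h. Klhl40, which stabilises the thin filament, rose by 1.96, and Runx1, a transcription factor of regenerating muscle, by 1.86. A probe set of the Mir133b host transcript, which does not measure the mature microRNA, rose by 2.19. Hoxb5, a homeobox gene, had 5.51, 8.70 and 8.64 at 6 h and 149, 136 and 115 at 0 h, and fell by 2.72. Tnfrsf12a, the receptor of TWEAK, fell by 2.27, the kinase Sgk1 by 1.94, Fgf7, a fibroblast growth factor for epithelia, by 1.90, and Itga5, the fibronectin receptor subunit, by 1.62.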
